A study of Rattus norvegicus with 6 samples.

Results

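The collagen genes of the rat kidney were followed here: every gene of the deposited count table whose symbol is that of a collagen chain (Col, a type number, a, a chain number). The rule found 44 chains among 31368 listed genes, namely 11 fibrillar chains, 9 network-forming chains, 9 fibril-associated chains with interrupted triple helices (FACIT) and 15 others. Renal tissue of male Sprague-Dawley rats, 8 weeks old and of wild-type genotype, was sequenced from animals labelled with chronic kidney disease (CKD) and from animals labelled Sham, with 3 libraries in each group. How the disease was induced is not stated in the labels. Nothing in them ties each library to its own animal, and p-values here reflect variation between libraries that may be technical. Assigned counts ran from 17240755 to 17503644 in CKD and from 15918035 to 17409090 in Sham.

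Collagens are trimers of polypeptide chains wound into a triple helix. Fibrillar collagens form the tensile fibrils of the interstitium, network collagens of type IV form the sheet of basement membranes, and FACIT collagens bind to the surface of fibrils. Other families form beaded filaments around cells, span the plasma membrane, or sit beneath basement membranes as proteoglycans. In the kidney, fibrillar collagen in the interstitium is the hallmark of fibrosis and is made mainly by fibroblasts and myofibroblasts. The glomerular filter carries a specialised type IV trimer of the chains encoded by Col4a3, Col4a4 and Col4a5, made by podocytes, whereas the trimer of Col4a1 and Col4a2 chains is found in basement membranes throughout the organ.

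The type IV genes lie head to head in pairs, and their start regions are shown because the chains of a pair are compared below. In RefSeq's GRCr8 assembly the starts of Col4a1 (plus strand) and Col4a2 (minus strand) lie 77 bases apart on chromosome 16, those of Col4a3 (plus) and Col4a4 (minus) 413 bases apart on chromosome 9, and those of Col4a5 (plus) and Col4a6 (minus) 1415 bases apart on chromosome X. Each sequence below runs from 250 bases before to 50 bases after the start of its own gene, 5′ to 3′ on that gene's strand, and the capitals mark the bases that the windows of a pair share (176 for Col4a1 and Col4a2, 88 for Col4a3 and Col4a4), read from opposite strands. The windows are chr16:84885347-84885646 (plus strand), chr16:84885471-84885770 (minus), chr9:91323740-91324039 (plus) and chr9:91323528-91323827 (minus).
Col4a1: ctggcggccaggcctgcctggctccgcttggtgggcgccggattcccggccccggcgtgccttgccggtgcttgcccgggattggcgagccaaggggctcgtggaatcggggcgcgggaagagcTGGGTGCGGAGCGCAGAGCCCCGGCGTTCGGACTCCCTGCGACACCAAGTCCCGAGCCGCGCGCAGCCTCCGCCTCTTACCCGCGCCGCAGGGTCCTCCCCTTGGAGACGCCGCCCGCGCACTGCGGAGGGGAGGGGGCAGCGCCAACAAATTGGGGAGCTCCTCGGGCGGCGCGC
Col4a2: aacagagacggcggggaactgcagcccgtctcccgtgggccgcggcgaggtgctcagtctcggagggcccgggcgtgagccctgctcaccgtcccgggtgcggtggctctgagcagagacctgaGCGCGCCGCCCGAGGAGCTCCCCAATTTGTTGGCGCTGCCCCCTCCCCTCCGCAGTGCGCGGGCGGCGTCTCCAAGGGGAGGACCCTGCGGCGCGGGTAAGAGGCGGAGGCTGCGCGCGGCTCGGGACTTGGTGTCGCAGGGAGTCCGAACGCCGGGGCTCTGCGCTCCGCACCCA
Col4a3: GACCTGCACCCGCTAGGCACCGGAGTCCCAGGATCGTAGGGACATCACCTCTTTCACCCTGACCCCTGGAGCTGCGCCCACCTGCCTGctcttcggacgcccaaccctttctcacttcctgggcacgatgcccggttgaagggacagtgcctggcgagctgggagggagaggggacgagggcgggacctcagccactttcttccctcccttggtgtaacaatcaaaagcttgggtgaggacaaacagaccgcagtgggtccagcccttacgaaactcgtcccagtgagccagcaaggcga
Col4a4: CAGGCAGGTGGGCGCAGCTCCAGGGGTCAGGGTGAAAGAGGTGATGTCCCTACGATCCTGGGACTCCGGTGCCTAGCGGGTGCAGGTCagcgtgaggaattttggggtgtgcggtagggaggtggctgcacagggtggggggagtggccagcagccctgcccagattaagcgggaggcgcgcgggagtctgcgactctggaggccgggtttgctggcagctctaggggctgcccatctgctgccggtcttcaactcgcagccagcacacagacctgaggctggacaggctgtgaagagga

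Windows of 3 further chains, all higher in every CKD library than in every Sham library, are shown with the matches to common promoter motifs in capitals. The motifs searched on both strands were the CCAAT box (CCAAT), the TATA box (TATAAA), the GC box (GGGCGG) and the cyclic AMP response element (TGACGTCA); no one of them contains another. Windows were found for 35 of the 44 chains, 38 windows in all. GGGCGG stood in 52.6% of the collagen windows and in 33.1% of all 33469 RefSeq windows, CCAAT in 31.6% and 37.5%, TATAAA in 10.5% and 14.2%. Some collagen windows overlap and are not independent. Overlapping windows of Col24a1 hold the same GGGCGG, and the windows of Col4a1 and Col4a2 hold the same GGGCGG matches in their shared bases. The collagen share therefore counts these matches more than once. TGACGTCA stood in 1.83% of all windows and, among the collagen windows, in the 3 overlapping ones of Col24a1 (7.89%). A match describes letters in these windows and not a bound site. The windows are chr4:33518307-33518606 (plus strand), chr11:56246532-56246831 (plus) and chr2:236872384-236872683 (plus), in GRCr8.
Col1a2: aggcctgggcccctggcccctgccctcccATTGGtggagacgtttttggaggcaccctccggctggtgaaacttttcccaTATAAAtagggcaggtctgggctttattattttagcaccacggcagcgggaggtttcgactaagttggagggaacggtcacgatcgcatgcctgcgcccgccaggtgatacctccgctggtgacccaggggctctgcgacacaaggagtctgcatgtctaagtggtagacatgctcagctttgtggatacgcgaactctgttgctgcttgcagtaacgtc
Col8a1: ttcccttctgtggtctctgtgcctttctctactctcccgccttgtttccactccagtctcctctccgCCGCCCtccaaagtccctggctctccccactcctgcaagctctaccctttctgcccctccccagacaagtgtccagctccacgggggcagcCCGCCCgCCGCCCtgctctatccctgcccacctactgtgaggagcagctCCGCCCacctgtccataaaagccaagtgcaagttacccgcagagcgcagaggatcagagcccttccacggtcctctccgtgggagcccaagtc
Col24a1: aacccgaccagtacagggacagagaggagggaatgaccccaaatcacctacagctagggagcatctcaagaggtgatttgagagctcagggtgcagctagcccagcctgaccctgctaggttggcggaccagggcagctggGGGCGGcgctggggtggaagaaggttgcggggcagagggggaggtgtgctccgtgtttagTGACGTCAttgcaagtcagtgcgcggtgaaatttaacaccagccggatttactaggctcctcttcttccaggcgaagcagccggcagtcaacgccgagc

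Libraries differed in ways that touch the chains. Genes of the mitochondrial genome took 37.9% of the counts in Sham 2, against 14.4% in Sham 1, 15.3% in Sham 3 and 8.83% to 10.8% in CKD. The summed level of 9 fibroblast markers was 605 to 890.1 CPM (counts scaled to library size after TMM normalization) in CKD and 83.4 to 391 CPM in Sham, lowest in Sham 2. Of these markers Tcf21, Meox1 and Col1a1 rose, and the others did not pass the test. Col1a1 is itself one of the collagen chains. In all, 8 of the 9 had positive fold changes and Pi16 a negative one (log2 fold change -0.80, edgeR adjusted p = 0.39). Lum and Meox1 were at 0 in 1 Sham library each. For 9 podocyte markers the sum was 523 to 905 CPM in CKD and 313 to 1056 CPM in Sham, lowest in Sham 1, and none was at 0. For 8 leukocyte markers it was 148 to 296 CPM in CKD and 36.5 to 71.5 CPM in Sham, and Itgam, Cd3g and Ptprc rose. For 8 endothelial markers it was 522 to 673 CPM in CKD and 556 to 751 CPM in Sham, and for 8 proximal tubule markers 9365 to 12672 CPM in CKD and 5299.9 to 18519 CPM in Sham, where none of either list passed the test. Of the endothelial markers 3, Pecam1, Emcn and Flt1, stood lower in every CKD library (12.4% of all genes tested did). Fold changes were negative for 5 of the 8 and positive for 3. Markers of urothelium and of skeletal muscle summed to at most 0.98 and 2.17 CPM in any library, and those of the adrenal cortex to 1.5 to 3.12 CPM in CKD and 6.05 to 12.8 CPM in Sham. Adipose markers summed to 14.0 to 27.9 CPM in CKD and 15.1 to 149 CPM in Sham. The cartilage list summed to 30.4 to 57.0 CPM in CKD and 39.8 to 73.9 CPM in Sham, nearly all of it Sox9, while its matrix gene Acan stayed at or below 0.41 CPM in every library. In bulk tissue more cells of a type and more RNA per cell cannot be told apart, and the part of these cell types in the collagen levels was not tested.

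The comparison asks how collagen expression differs between CKD and Sham kidneys. The chains that rose in CKD were Col1a1 (type I), Col24a1 (type XXIV) and Col16a1 (type XVI) and the network chains Col8a1 (type VIII) and Col4a6 (type IV). Of the 44 chains 36 passed the filter on low counts and were tested, and 5 of these 36 were called by edgeR's quasi-likelihood test at an adjusted p of 0.05, all 5 of them higher. Over all 15371 genes tested 3.82% were called, 2.67% as higher and 1.15% as lower. By TMM-scaled CPM, 20 of the 36 tested chains stood higher in every CKD library than in every Sham library (18.8% of all genes tested did). By the same measure 6 stood lower (12.4% of all genes tested). At an unadjusted p of 0.05 the model separated 20 chains upward and 5 downward, against 13.5% and 10.3% of all genes. The median log2 fold change (CKD minus Sham) was 1.27 over the 36 tested chains and -0.01 over all genes tested. The calls changed with single libraries. Without CKD 1, CKD 2, Sham 2 or Sham 3, 0 chains were called (18, 21, 24 and 23 chains at an unadjusted p under 0.05). Shares of all genes in these fits were not set beside those counts, so they are not a result about the chains. Without CKD 3, 4 chains were called (all higher, where 2.61% of all genes were called, 2.15% as higher). Without Sham 1, 18 were called (14 higher and 4 lower, where 4.96% of all genes were called higher and 5.8% lower). The chains called without Sham 1 beside the original 5 were Col3a1, Col5a1, Col5a2, Col6a1, Col6a2, Col8a2, Col11a1, Col14a1 and Col15a1, all higher, and Col4a3, Col11a2, Col20a1 and Col27a1, all lower. DESeq2 called 24 chains, 20 higher and 4 lower, and 16.3% of all genes, 8.99% higher and 7.28% lower.

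The 8 chains that were not tested had between 7 and 55 counts over all 6 libraries together and no more than 24 in a library. They were Col2a1 and Col10a1, chains of cartilage, Col9a3, Col22a1, Col6a4, Col25a1, Col26a1 and Col28a1. Col21a1 of the FACIT class was not analysed here. The tested chain with the fewest counts was Col23a1, a transmembrane collagen, which had 2, 14 and 13 counts in CKD, against 10, 12 and 6 in Sham.

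**Figure D1:**
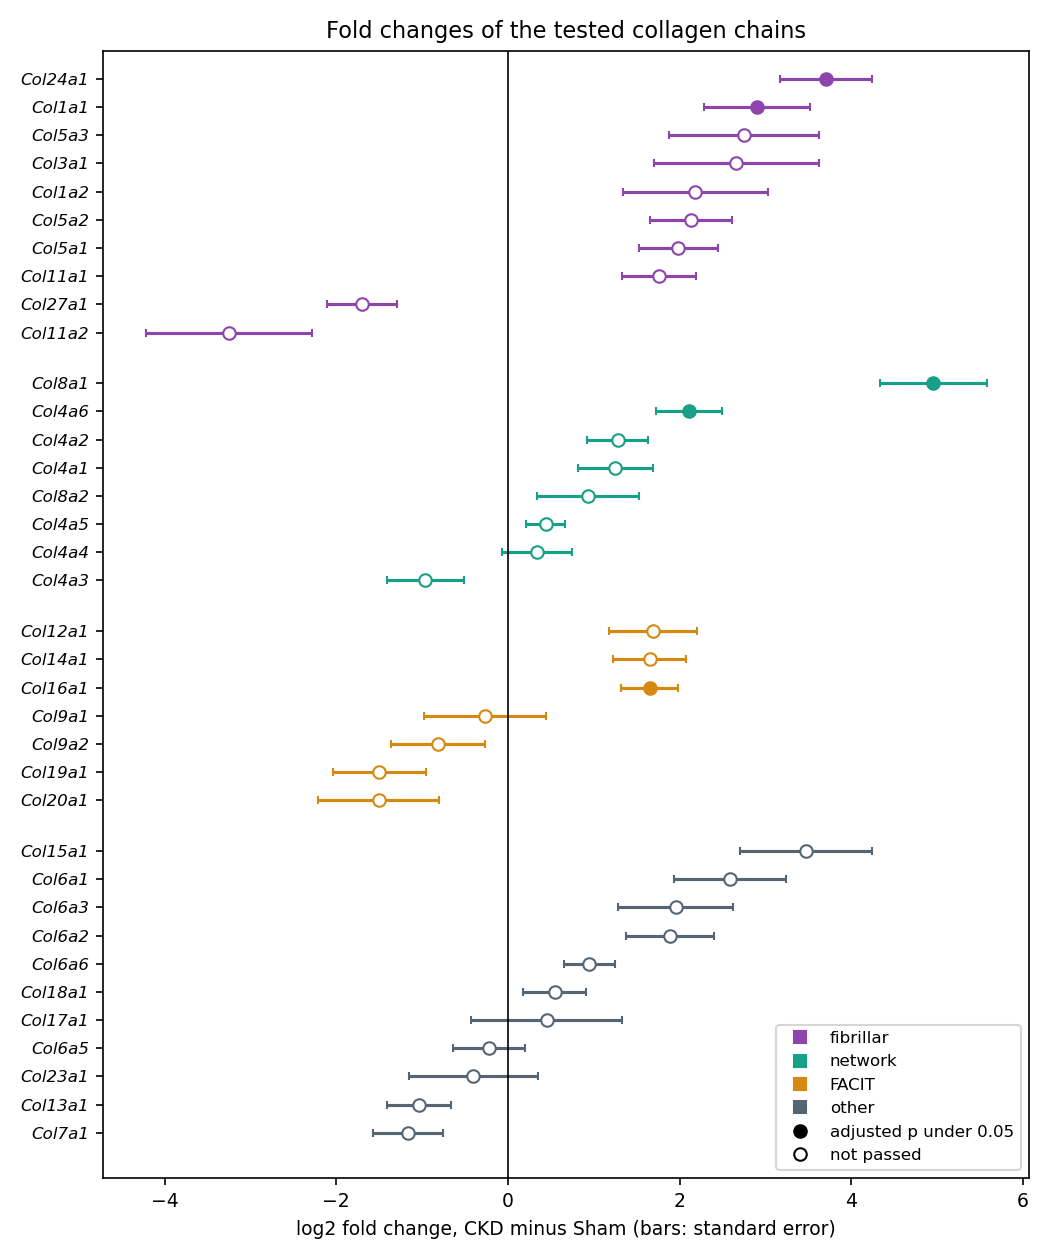
Log2 fold changes (CKD minus Sham, x axis) of the 36 tested collagen chains with their standard errors, grouped by class and coloured by it; filled points passed an adjusted p of 0.05. All 8 fibrillar chains to the right of 0 have estimates of at least 1.76, and Col27a1 and Col11a2 lie to the left.

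Fibrillar collagens had the highest class median, 2.16 over 10 tested chains. Of the tested chains 8 were higher in every CKD library than in every Sham library, and 2, Col27a1 and Col11a2, were lower in every CKD library by TMM-scaled CPM. Col1a1 and Col1a2 encode the chains of type I collagen, the main fibril of scar tissue. Col1a1 (gene ENSRNOG00000003897, chromosome 10 from 79883622 to 79900624 in the deposited coordinates) had 273, 189 and 152 CPM in CKD 1, 2 and 3, against 53.3, 9.29 and 19.4 CPM in Sham 1, 2 and 3. Each CKD library lay above the highest Sham library, Sham 1, and Sham 2 was the lowest. The fold change of Col1a1 was 2.90 ± 0.62 on the log2 scale (± SE here and below), with an edgeR adjusted p of 0.0493. Col1a2 had 208, 198 and 121 CPM in CKD 1, 2 and 3, against 78.7, 4.19 and 32.9 CPM in Sham 1, 2 and 3. Its groups did not overlap either, but Sham 1 and Sham 2 differed by far more than the CKD libraries did, and its log2 fold change of 2.18 ± 0.84 did not pass (edgeR adjusted p = 0.171); it was 3.21 without Sham 1.

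Type III collagen, encoded by Col3a1, forms thin fibrils with type I in the interstitium and vessel walls. Col3a1 had 433, 344 and 199 CPM in CKD 1, 2 and 3, against 113, 4.33 and 37.0 CPM in Sham 1, 2 and 3, the highest CPM of the fibrillar class in every CKD library; the Sham mean of Col27a1 was higher than that of Col3a1. Sham 2 held only 62 reads of Col3a1, against 1696 in Sham 1, and the CKD libraries lay above all of Sham. The log2 fold change was 2.66 ± 0.96 (edgeR adjusted p = 0.148) and 3.94 without Sham 1 (edgeR adjusted p = 0.0454). Col5a1 and Col5a2 encode type V collagen, which nucleates type I fibrils and limits their diameter. Col5a1 had 84.0, 56.5 and 38.4 CPM in CKD 1, 2 and 3, against 20.1, 6.78 and 18.4 CPM in Sham 1, 2 and 3, and Col5a2 had 92.2, 99.7 and 53.3 CPM in CKD 1, 2 and 3, against 29.3, 7.89 and 18.5 CPM in Sham 1, 2 and 3. In both chains the CKD libraries lay above the Sham libraries with CKD 3 lowest of the CKD group, and the log2 fold changes were 1.98 ± 0.46 and 2.14 ± 0.48 (edgeR adjusted p = 0.0568 and 0.0537). The minor type V chain Col5a3 was rare, with 58, 47 and 28 counts in CKD, against 8, 0 and 6 in Sham (log2 fold change 2.75, edgeR adjusted p = 0.112). Col11a1, a chain of type XI collagen that is best known from cartilage fibrils, had 23.1, 18.4 and 10.3 CPM in CKD 1, 2 and 3, against 6.93, 2.93 and 5.42 CPM in Sham 1, 2 and 3, again without overlap (log2 fold change 1.76 ± 0.43, edgeR adjusted p = 0.0644).

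Col24a1 encodes a fibrillar collagen known in the mouse from developing bone and cornea. Its gene (ENSRNOG00000014143) lies on chromosome 2 from 234212324 to 234469441 in the deposited coordinates. It had 416, 176 and 127 counts in CKD, against 12, 11 and 16 in Sham, or 11.8 ± 7.27 CPM in CKD and 0.898 ± 0.198 CPM in Sham (SD, n = 3 each). The Sham libraries were close to each other and CKD 1 stood above CKD 2 and CKD 3. The rise of Col24a1, 3.70 ± 0.54 in log2 units, was the largest among the fibrillar chains (edgeR adjusted p = 0.0308), and it was 3.08 without CKD 1.

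The other two fibrillar chains stood lower in CKD. Col27a1, a fibrillar collagen of cartilage, had 22.1, 15.4 and 17.7 CPM in CKD 1, 2 and 3, against 31.1, 96.5 and 51.3 CPM in Sham 1, 2 and 3. All CKD libraries were below Sham 1, the lowest of Sham, and Sham 2 was the highest (log2 fold change -1.70 ± 0.41, edgeR adjusted p = 0.0634). Col11a2, the second type XI chain, had 25, 22 and 20 counts in CKD, against 22, 367 and 68 in Sham. Its CKD libraries lay below Sham 1 only after TMM scaling (1.21, 1.09 and 1.02 CPM, against 1.47 CPM), since by count CKD 1 was above Sham 1. Sham 2 held most of the Sham reads; the log2 fold change of -3.25 ± 0.97 (edgeR adjusted p = 0.0962) became -1.52 without Sham 2. Neither chain passed the test.

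**Figure D2:**
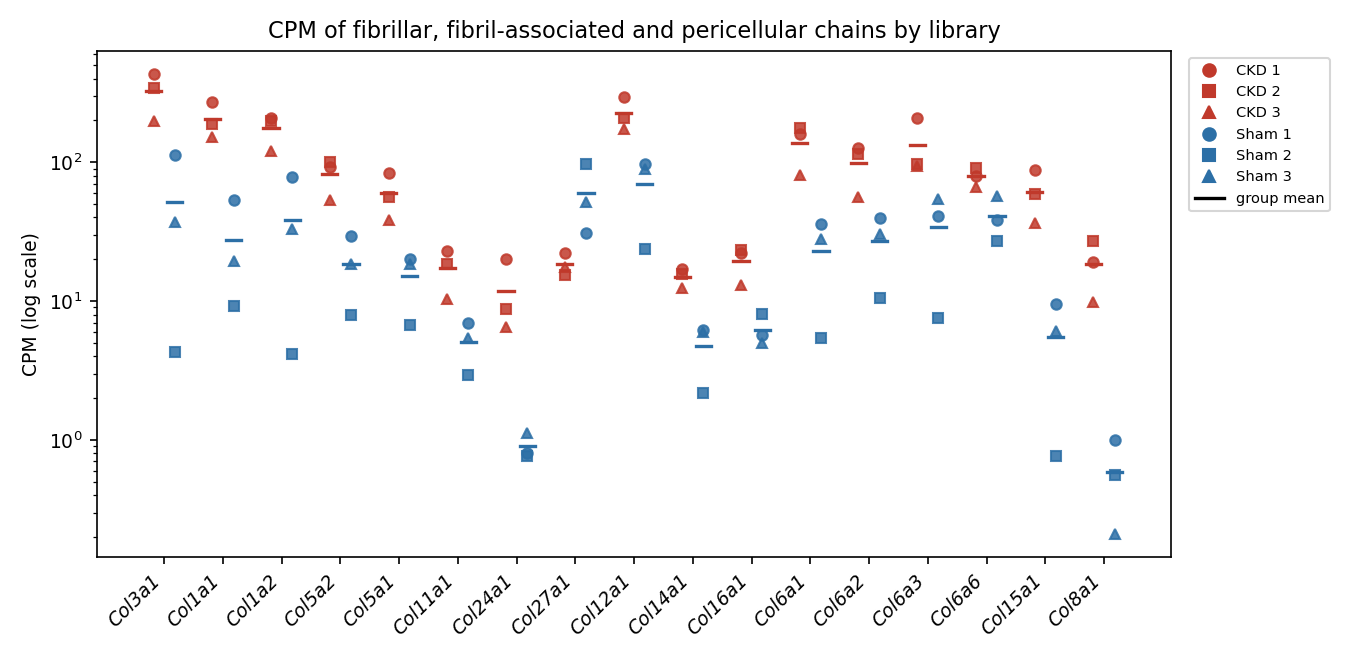
CPM per library (log axis) of 17 chains of the fibrillar, network, FACIT and other classes, with CKD left of Sham for each chain and bars at the group means. The blue square, Sham 2, is the lowest Sham point in most of the chains and stands at 4.33 CPM for Col3a1; in Col27a1 it is the highest Sham point at 96.5 CPM.

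Col4a1 and Col4a2 form the trimer of general basement membranes. Col4a1 had 1231, 825 and 528 CPM in CKD 1, 2 and 3, against 385, 219.5 and 479.8 CPM in Sham 1, 2 and 3. Col4a2 had 812, 608 and 433 CPM in CKD 1, 2 and 3, against 313, 177 and 273 CPM in Sham 1, 2 and 3. The groups did not overlap in either chain, although CKD 3 came close to Sham 3 in Col4a1. Their log2 fold changes were 1.25 ± 0.44 and 1.28 ± 0.36 (edgeR adjusted p = 0.139 and 0.0828), and neither passed. Within a library the counts of Col4a1 and Col4a2 kept close to each other, with a ratio of 1.52, 1.36 and 1.22 in CKD 1, 2 and 3, against 1.23, 1.24 and 1.76 in Sham 1, 2 and 3. The log2 ratio differed by -0.03 between CKD and Sham (two-sided exact permutation p = 0.8; adjusted over 11 pairs of chains, 0.88).

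Of the glomerular trimer, whose chains did not pass the test, Col4a3 had 125, 84.4 and 131 CPM in CKD 1, 2 and 3, against 89.3, 288 and 287 CPM in Sham 1, 2 and 3. Sham 2 and Sham 3 stood above all CKD libraries, while Sham 1 lay within the CKD range. Col4a4 had 512, 372 and 624 CPM in CKD 1, 2 and 3, against 306, 259 and 628 CPM in Sham 1, 2 and 3, with full overlap between groups. For Col4a5, which also joins a trimer with Col4a6, the values were 141, 123 and 96.6 CPM in CKD 1, 2 and 3, against 100.5, 72.0 and 93.2 CPM in Sham 1, 2 and 3, and CKD 3 lay below Sham 1. The log2 fold changes were -0.96 ± 0.45, 0.34 ± 0.41 and 0.44 ± 0.23 (edgeR adjusted p = 0.24, 0.659 and 0.294), and without Sham 1 Col4a3 was called lower (-1.39, edgeR adjusted p = 0.0298). The podocyte marker sum moved with Col4a3 among the Sham libraries, being 313, 1056 and 925 CPM in Sham 1, 2 and 3, and was 671, 523 and 905 CPM in CKD 1, 2 and 3. As a share of that sum Col4a3 was 18.6%, 16.2% and 14.5% in CKD 1, 2 and 3, against 28.5%, 27.2% and 31.1% in Sham 1, 2 and 3, so that the groups did not overlap once set against the podocyte markers. This share was computed after the values had been seen, and it gave overlap for Col4a4 (68.9% to 76.3% in CKD, 24.6% to 97.5% in Sham) and for Col4a5 (10.7% to 23.5% in CKD, 6.82% to 32.1% in Sham).

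Col4a6, whose chain joins that of Col4a5 in basement membranes of Bowman's capsule and some tubules, rose in CKD. The gene (ENSRNOG00000056772) lies on chromosome X from 104766957 to 105117500 in the deposited coordinates. It had 15.1, 9.84 and 7.99 CPM in CKD 1, 2 and 3, against 2.67, 3.14 and 1.83 CPM in Sham 1, 2 and 3. Every CKD library lay above Sham 2, the highest of Sham. The log2 fold change of Col4a6 was 2.11 ± 0.38 (edgeR adjusted p = 0.0394).

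**Figure D3:**
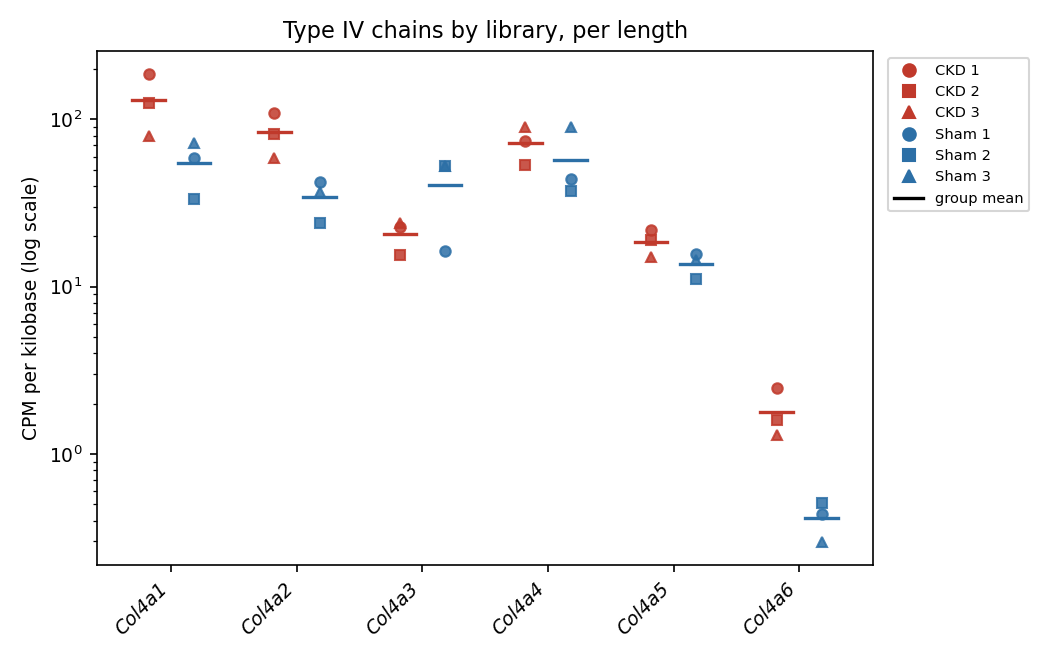
Levels of the 6 type IV chains in CPM per kilobase of the deposited gene length (log axis) by library, with CKD left of Sham and bars at the group means. Col4a1, Col4a2 and Col4a6 have all CKD points above all Sham points; for Col4a3, Sham 2 and Sham 3 lie on top of each other above the CKD points.

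Ratios within a library do not depend on how libraries are scaled. The Col4a3 to Col4a4 count ratio was 0.244, 0.227 and 0.210 in CKD 1, 2 and 3, against 0.292, 1.11 and 0.458 in Sham 1, 2 and 3. The CKD values were nearly equal to each other and all below Sham (log2 difference -1.22, exact permutation p = 0.1, adjusted p = 0.275). The Col4a1 to Col4a3 ratio was 9.84, 9.77 and 4.02 in CKD and 4.32, 0.763 and 1.67 in Sham, with CKD 3 just below Sham 1 (log2 difference 2.04, exact permutation p = 0.2, adjusted p = 0.367). Col4a3 to Col4a5 ratios likewise overlapped, at 0.888, 0.689 and 1.36 in CKD and 0.889, 3.99 and 3.08 in Sham (exact permutation p = 0.2, adjusted p = 0.367). With 3 libraries against 3 the smallest two-sided p is 0.1, so that no pair could pass 0.05. Reads of the overlap between the head-to-head genes, 307 bases for Col4a1 and Col4a2 and 316 bases for Col4a3 and Col4a4 in the deposited coordinates, cannot be assigned to a gene without strand.

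The Col1a1 to Col4a1 count ratio was 0.222, 0.229 and 0.287 in CKD 1, 2 and 3, against 0.138, 0.0423 and 0.0405 in Sham 1, 2 and 3. The groups did not overlap (log2 difference 1.98, exact permutation p = 0.1, adjusted p = 0.275). Among fibrillar partners the ratios overlapped: Col1a1 to Col1a2 was 1.32, 0.953 and 1.26 in CKD and 0.678, 2.22 and 0.590 in Sham, and Col1a1 to Col3a1 was 0.631, 0.549 and 0.761 in CKD and 0.472, 2.15 and 0.525 in Sham (exact permutation p = 0.8 and 1; adjusted p = 0.88 and 1). In both of these pairs Sham 2 was the library that stood apart. Col5a1 to Col5a2 ratios were 0.911, 0.567 and 0.721 in CKD and 0.684, 0.858 and 0.996 in Sham (exact permutation p = 0.5, adjusted p = 0.688).

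**Figure D4:**
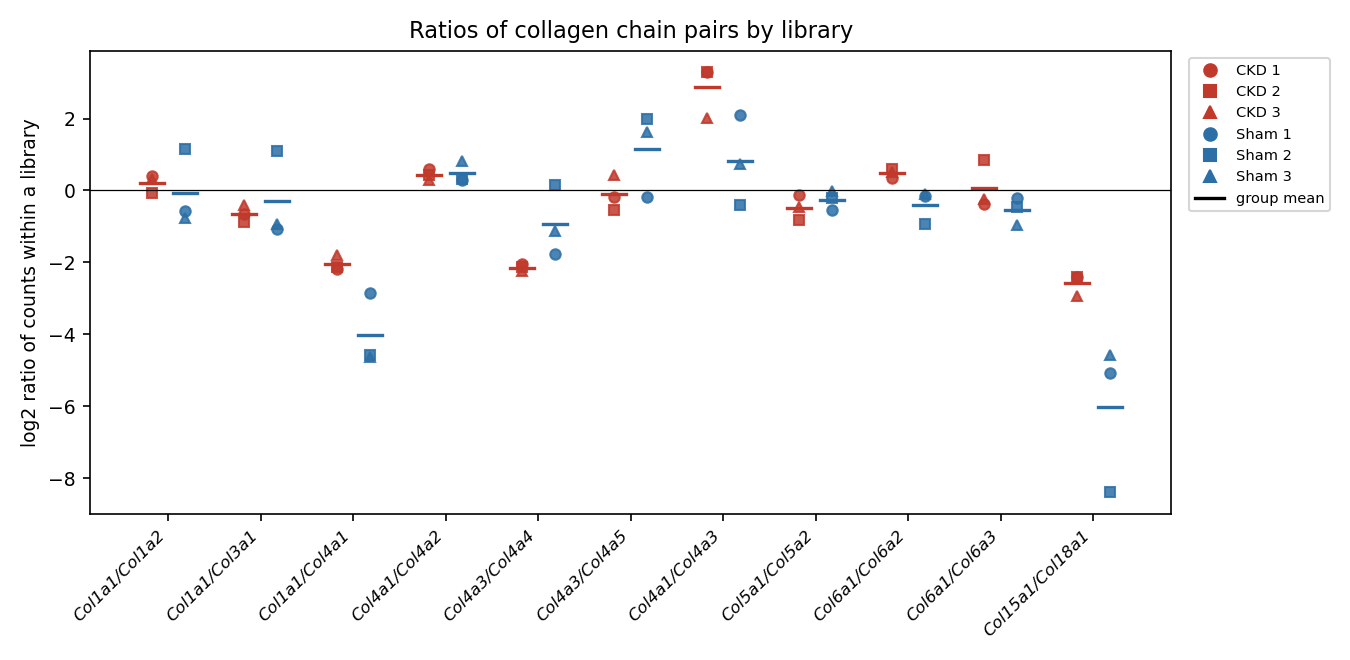
Log2 ratios of counts within each library for 11 pairs of chains, CKD left of Sham, with bars at the group means. In all, 4 pairs do not overlap between groups (Col1a1/Col4a1, Col4a3/Col4a4, Col6a1/Col6a2 and Col15a1/Col18a1), and Col4a1/Col4a2 has nearly equal means.

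Among the short-chain network collagens, Col8a1 showed the largest rise of any collagen chain tested. Type VIII collagen forms lattices under endothelium and around vessel smooth muscle. Col8a1 (ENSRNOG00000039668, chromosome 11 from 42777628 to 42906424 in the deposited coordinates) had 398, 542 and 191 counts in CKD, against 15, 8 and 3 in Sham. CKD 2 was the highest and CKD 3 the lowest of CKD, and no Sham library held more than 15 reads. The means were 18.6 ± 8.59 CPM in CKD and 0.590 ± 0.395 CPM in Sham (SD, n = 3 each), which gave Col8a1 a log2 rise of 4.96 ± 0.62 (edgeR adjusted p = 0.0278). Its partner Col8a2 had 15.6, 14.6 and 12.9 CPM in CKD 1, 2 and 3, against 14.7, 2.24 and 5.49 CPM in Sham 1, 2 and 3, where Sham 1 reached the CKD range (log2 fold change 0.93 ± 0.60, edgeR adjusted p = 0.379; 1.85 without Sham 1, where it passed at 0.0407).

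Of the FACIT collagens, Col12a1, Col14a1 and Col16a1 were higher in every CKD library than in every Sham library, and the other 4 tested members had negative fold changes. Col12a1, which binds type I fibrils in tissues under tension, had 297, 206 and 174 CPM in CKD 1, 2 and 3, against 96.8, 23.5 and 89.7 CPM in Sham 1, 2 and 3. Col14a1, a close relative, had 16.9, 15.8 and 12.4 CPM in CKD, against 6.20, 2.17 and 5.98 in Sham. The log2 fold changes were 1.69 ± 0.51 and 1.65 ± 0.42, and neither passed (edgeR adjusted p = 0.101 and 0.0703). Col16a1 (ENSRNOG00000031475, chromosome 5 from 142388426 to 142442825 in the deposited coordinates), a collagen found near basement membranes and smooth muscle, had 22.3, 23.4 and 13.01 CPM in CKD, against 5.67, 8.03 and 4.997 in Sham. Sham 2 was the highest Sham library here, and Col16a1 rose by 1.65 ± 0.33 (edgeR adjusted p = 0.0438). The cartilage chains Col9a1 and Col9a2 were rare, at most 39 and 44 counts in a library. Col9a2 stood lower in every CKD library by TMM-scaled CPM but not by counts (30, 12 and 29 in CKD, against 24, 44 and 22 in Sham). Col19a1 had 11, 14 and 28 counts in CKD, against 29, 49 and 31 in Sham, and Col20a1 had 35, 41 and 40 counts in CKD, against 19, 156 and 61 in Sham. Sham 2 was the highest library for both (log2 fold changes -1.50 ± 0.54 and -1.51 ± 0.71; edgeR adjusted p = 0.151 and 0.243), and Col20a1 gave -0.56 without Sham 2. The span of Col20a1 overlaps that of Arfgap1 on the same strand by 15320 bases in the deposited coordinates. The class median of the 7 tested FACIT chains was -0.26, but 0.15 with library totals alone, 0.22 without Sham 3 and 0.14 without CKD 2. The median is a single rare chain, Col9a1.

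Type VI collagen forms beaded filaments around cells. Its chains Col6a1, Col6a2 and Col6a3 assemble together, and Col6a5 and Col6a6 are relatives of Col6a3. Col6a1 had 159, 176 and 80.5 CPM in CKD 1, 2 and 3, against 35.6, 5.45 and 28.1 CPM in Sham 1, 2 and 3, and Col6a2 had 126, 115 and 56.5 CPM in CKD 1, 2 and 3, against 39.8, 10.5 and 30.3 CPM in Sham 1, 2 and 3. Col6a3 had 208, 97.8 and 94.2 CPM in CKD 1, 2 and 3, against 41.0, 7.55 and 54.6 CPM in Sham 1, 2 and 3. In all of these chains the CKD libraries lay above the Sham libraries and Sham 2 was the lowest. Their log2 fold changes were 2.59 ± 0.65, 1.89 ± 0.51 and 1.95 ± 0.67, none past the threshold (edgeR adjusted p = 0.0681, 0.0792 and 0.133). Col6a6 had 79.8, 90.5 and 66.7 CPM in CKD, against 38.6, 27.0 and 57.3 in Sham, also without overlap (log2 fold change 0.95 ± 0.30, edgeR adjusted p = 0.109), while Col6a5 overlapped fully at 3.18 to 5.55 CPM in CKD and 3.28 to 7.46 CPM in Sham. The count ratio of Col6a1 to Col6a2 was 1.26, 1.53 and 1.42 in CKD, against 0.894, 0.520 and 0.926 in Sham. These groups did not overlap (log2 difference 0.89, exact permutation p = 0.1, adjusted p = 0.275). The span of Col6a2 overlaps that of Ftcd on the opposite strand by 2357 bases in the deposited coordinates, and Ftcd had up to 1444 counts in a library, and without strand the reads of the overlap cannot be assigned to a gene. Col6a1 to Col6a3 ratios overlapped (0.767, 1.80 and 0.854 in CKD, 0.868, 0.722 and 0.514 in Sham; exact permutation p = 0.3, adjusted p = 0.471).

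Multiplexins are collagens that carry sugar chains and lie along basement membranes. Col15a1, found around capillaries and in the interstitium, had 1817, 1182 and 713 counts in CKD, against 144, 11 and 86 in Sham. Sham 2 held 11 reads, and every CKD library was above every Sham library. The means of Col15a1 were 61.0 ± 25.6 CPM in CKD and 5.47 ± 4.44 CPM in Sham (SD, n = 3 each), and the log2 fold change of 3.47 ± 0.77 stood just outside the threshold (edgeR adjusted p = 0.0532). Col18a1, the source of the fragment endostatin, had 463, 314 and 279 CPM in CKD 1, 2 and 3, against 322, 259 and 144 CPM in Sham 1, 2 and 3, with overlap (log2 fold change 0.54 ± 0.37, edgeR adjusted p = 0.404). The Col15a1 to Col18a1 ratio was 0.189, 0.187 and 0.131 in CKD, against 0.0298, 0.00297 and 0.0422 in Sham (log2 difference 3.43, exact permutation p = 0.1, adjusted p = 0.275). Of epithelial and transmembrane collagens, Col7a1, the anchoring fibril of skin, had 46, 43 and 48 counts in CKD, against 51, 67 and 103 in Sham, and Col13a1 had 37, 36 and 38 counts in CKD, against 70, 50 and 45 in Sham. Both were lower in every CKD library, without passing (log2 fold changes -1.17 ± 0.41 and -1.03 ± 0.37; edgeR adjusted p = 0.136 and 0.149). Col17a1, a hemidesmosome protein, had 41, 93 and 379 counts in CKD, against 54, 43 and 176 in Sham. CKD 3 and Sham 3 were the high libraries, and the log2 fold change, 0.45 ± 0.88, turned to -0.93 when CKD 3 was left out.

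Summed over all 44 chains, collagen reached 5510.0, 4110.2 and 3296 CPM in CKD 1, 2 and 3, against 2169, 1562 and 2421 CPM in Sham 1, 2 and 3. Every CKD library lay above every Sham library, and the ratio of group means was 1.07 on the log2 scale. As a share of all counts collagen took 0.654%, 0.473% and 0.373% in CKD 1, 2 and 3, against 0.187%, 0.131% and 0.216% in Sham 1, 2 and 3. Fibrillar chains made up 21.1%, 22.7% and 18.2% of collagen counts in CKD, against 15.5%, 10.2% and 7.82% in Sham. Network chains made up 52.1%, 50.2% and 55.93% in CKD, against 55.92%, 65.4% and 73.0% in Sham, so that CKD 3 and Sham 1 were nearly level. FACIT chains took 6.09% to 6.28% in CKD and 3.43% to 5.29% in Sham, and the other chains 19.5% to 21.0% in CKD and 14.5% to 23.3% in Sham.

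**Figure D5:**
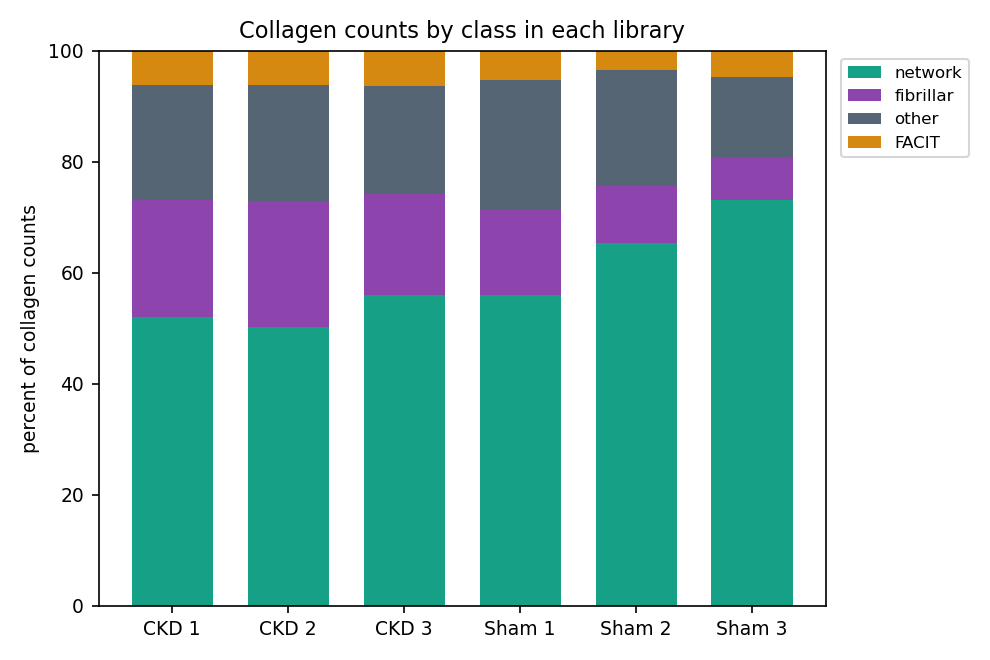
Percent of all collagen counts taken by each class in each library, CKD libraries at the left and Sham libraries at the right. The fibrillar share is 18.2% to 22.7% in CKD and 7.82% to 15.5% in Sham, and network chains are the largest class in every library.

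Per length, the order of chains differed between groups. In CKD the highest levels were those of Col4a1 (131 ± 53.5 CPM per kilobase, SD, n = 3), Col4a2 (83.6 ± 25.7), Col4a4 (72.5 ± 18.2), Col3a1 (68.0 ± 24.7) and Col18a1 (50.7 ± 14.1), and neighbours in this order lay within a standard deviation of each other. In Sham they were Col4a4 (57.3 ± 28.9), Col4a1 (54.8 ± 19.98), Col4a3 (40.5 ± 20.9), Col18a1 (34.8 ± 13.02) and Col4a2 (34.5 ± 9.47), again within the spread. Col1a1 stood seventh in CKD at 35.1 ± 10.7 CPM per kilobase, against 4.70 ± 3.96 in Sham.

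The chains that stood higher in CKD were mostly low in the same libraries. Of the 20 chains that were higher in every CKD library, CKD 3 was the lowest CKD library in 20 and Sham 2 the lowest Sham library in 17, that is in 100% and 85%, against 63.4% and 42.5% of the 2893 genes that separated in the same way. The median coefficient of variation was 30.6% in CKD and 51.1% in Sham over the tested chains, against 15.4% and 33.5% over all genes tested. The fibroblast markers without Col1a1 summed to 617, 619 and 453 CPM in CKD 1, 2 and 3, against 338, 74.1 and 209 CPM in Sham 1, 2 and 3, lowest in CKD 3 and in Sham 2. Relative to the sum of these 8 markers Col1a1 stood at 44.4%, 30.5% and 33.5% in CKD 1, 2 and 3, against 15.8%, 12.5% and 9.28% in Sham 1, 2 and 3. Col3a1 stood at 70.3%, 55.5% and 44.0% of that sum in CKD, against 33.5%, 5.84% and 17.7% in Sham. Neither chain overlapped between groups on this scale, which was chosen after the values had been seen.

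Genes that fold, trim, cross-link, bind and cut collagen were counted from lists, and 8 of the 81 tested were called, all higher, where 2.67% of all genes tested were called higher and 1.15% lower. When CKD 1, CKD 2, Sham 2 or Sham 3 was left out, 0 of them were called (28, 31, 38 and 32 at an unadjusted edgeR p under 0.05). Shares of all genes in these fits were not set beside those counts, so they are not a result about the lists. Without CKD 3, 5 were called, with 2.61% of all genes. Without Sham 1, 23 were called (18 higher and 5 lower, with 4.96% and 5.8% of all genes). Of 21 tested genes of collagen folding and modification 2 rose and 0 fell (9 and 1 at an unadjusted edgeR p under 0.05, against 13.5% and 10.3% of all genes tested; median log2 fold change 0.52): P3h4, a partner of the lysyl hydroxylase complex, by 2.03 ± 0.41 and Fkbp10, a collagen chaperone of the endoplasmic reticulum, by 1.53 ± 0.32 (edgeR adjusted p = 0.0441 and 0.0484). The collagen chaperone Serpinh1 had 226, 135 and 104 CPM in CKD, against 81.5, 54.5 and 42.4 in Sham, without passing (edgeR adjusted p = 0.0751). In the other direction, P4ha2 had 13.1, 13.9 and 11.3 CPM in CKD, against 19.4, 45.8 and 31.3 in Sham. It did not pass either (log2 fold change -1.34 ± 0.33, edgeR adjusted p = 0.0656). Serpinh1 and P4ha2 were named after their values were seen. Of the 21 genes 9 stood higher and 2 lower in every CKD library (18.8% and 12.4% of all genes tested did). Of 15 genes of procollagen trimming and crosslinking 3 rose (median 1.36). Pxdn, the peroxidase that forms the sulfilimine crosslink of type IV collagen, had 129, 118 and 70.8 CPM in CKD 1, 2 and 3, against 21.3, 20.5 and 18.2 CPM in Sham 1, 2 and 3. It was uniform among Sham libraries and rose by 2.41 ± 0.27, Loxl4, a lysyl oxidase, rose by 1.83 ± 0.35, and Pcolce, which speeds removal of the procollagen tail, rose by 1.20 ± 0.25 (edgeR adjusted p = 0.0278, 0.0415 and 0.0467). Of 10 collagen receptors 1 rose (median 0.72): Itga11, the alpha subunit of an integrin for fibrillar collagen, had 142, 153 and 71 counts in CKD, against 8, 0 and 5 in Sham (log2 fold change 4.31 ± 0.85, edgeR adjusted p = 0.0426). Of 6 tested collagen-degrading proteases only Mmp14, a membrane-bound collagenase, passed (log2 fold change 1.64 ± 0.23, edgeR adjusted p = 0.0285; list median 1.39). The gelatinase Mmp9 had the largest fold change of the list, with 40, 18 and 79 counts in CKD, against 49, 815 and 528 in Sham. CKD 3 lay above Sham 1 and Mmp9 did not pass (log2 fold change -3.82, edgeR adjusted p = 0.074). DESeq2 called 5 of these proteases, 4 higher and 1 lower, where it called 8.99% of all genes higher and 7.28% lower. The neutrophil collagenase Mmp8, not tested for its low counts, had 4, 0 and 1 counts in CKD, against 6, 62 and 52 in Sham. Both genes were named after their values were seen. Of 11 fibril-associated proteoglycans and glycoproteins only Fn1, which encodes fibronectin, passed (log2 fold change 1.99 ± 0.38, edgeR adjusted p = 0.0415; list median 1.14). Of 18 basement membrane partners 0 passed in edgeR (5 higher and 1 lower at an unadjusted p under 0.05, against the same 13.5% and 10.3%; median 0.19). In limma-voom 0 passed, and in DESeq2 4 (3 higher, 1 lower, with 8.99% and 7.28% of all genes). Lamb1, a laminin chain, had the smallest p of this list (log2 fold change 0.99 ± 0.22, edgeR adjusted p = 0.053).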

How the data were processed

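TRIzol RNA from kidney went into VAHTS Universal V5 libraries, per the labels' protocols. The authors deposited raw counts per gene, not normalized, a column for each library. The submitters' processing notes name HTSeq 0.11.2, HISAT2 2.1.0, fastp 0.20.1 and the build Rnor_6.0, without role or order. The build of the table's coordinates is uncertain (highest gene end on chromosome 1, 260398790), and no source used here gives the strand setting. Reads of overlapping genes or near-identical chains are therefore uncertain.

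Members and lists were chosen with earlier results of these data known. Genes were kept by filterByExpr (minimum count 10, minimum total 15), scaled by TMM and tested with edgeR 4.0.16 (limma 3.58.1, R 4.3.3): a robust quasi-likelihood fit, group only, Benjamini-Hochberg over all 15371 genes, threshold 0.05. The procedure was also run on simulated counts, drawn gene by gene. They lacked the library differences described above, so that run does not bear on the calls in these data. CPM are counts over TMM-scaled library size; per-kilobase levels use the authors' gene length. Within-library ratios were tested by exact permutation. Named were chains past the threshold, all tested fibrillar and type IV chains, and per other class the chains with the highest level, smallest p and largest fold changes; other chains were added after their values were seen. Of each other list the members past the threshold were named or, where none passed, those with the smallest p; 1 such gene is not reported here. No pair of libraries within a group looked like a repeat deposit (chi-square per degree of freedom from 30.9 to 330.1). Promoter windows are RefSeq's. Columns of other series numbered 0. Replicate numbers were not used to pair the libraries in the main fit. Alternatives included DESeq2 1.42.0 and limma-voom.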

Additional observations from a re-analysis of the deposited data

How the results depend on the processing

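The 5 collagen calls became 15 with library totals alone, 8 with upper-quartile factors, 8 (7 higher, 1 lower) with no filter, 24 in DESeq2 and 1 (Col8a1) in limma-voom; they were 4 with RLE factors, a CPM filter or mitochondrial genes removed and 5 without robust fitting. Left-out libraries gave 0 to 18 chains and 0 to 1711 genes. Calls over all genes differed as well in the settings given next. From 587 (411 higher, 176 lower) they went to 2228 with library totals alone (2047 higher, 181 lower) and 717 with upper-quartile factors (548 higher, 169 lower). They were 533 with RLE factors (346 higher, 187 lower), 2497 in DESeq2 (1379 higher, 1118 lower) and 164 in limma-voom. Calls over all genes are not given here for no filter, the CPM filter, mitochondrial genes removed or fitting that was not robust. Whether chain counts changed more than those of all genes was not tested. With library totals alone the all-gene median was 0.41 instead of -0.01, which moved the FACIT median from -0.26 to 0.15, the network median from 1.09 to 1.51 and the log2 ratio of summed collagen from 1.07 to 1.49. The 8 called genes of the other collagen lists became 31 with library totals alone or in DESeq2, 2 in limma-voom, 0 with a replicate block and 0 to 23 with libraries left out; applying these alternatives to the lists, unlike to the chains, was chosen after seeing the data. Libraries with the same replicate number had correlations of deviations of -0.23, 0.0069 and -0.15 for numbers 1, 2 and 3. With 3 libraries per group these values cannot exclude a pairing. A replicate block left 10 genes and 1 collagen chain (Col8a1).

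With libraries left out, the class median ran from 1.66 to 2.90 for fibrillar, 0.70 to 1.33 for network, -0.71 to 0.22 for FACIT, 0.55 to 1.20 for other and 0.99 to 1.5 for all chains. Rare chains turned sign with library totals alone, namely Col6a5 (0.19), Col9a1 (0.15) and Col23a1 (0.010). With single libraries left out, sign turned without CKD 1 for Col23a1 (-0.74 to 0.089), without CKD 2 or Sham 3 for Col6a5 (-0.52 to 0.014) and Col9a1 (-0.71 to 0.22), and without CKD 3 for Col17a1 (-0.93 to 1.34). Of these chains Col23a1 and Col9a1 had at most 14 and 39 counts in a library, while Col6a5 reached 115 in CKD 1 and Col17a1 379 in CKD 3. The cause of the sign changes was not tested. Apart from them, depth limits how well chains under 100 counts per library are measured.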
